A study of Mus musculus with 64 samples.

Results

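The comparison described here is the deletion of Setdb1 in mouse embryonic stem cells (mESCs, strain TT2) that already lack G9a and Suv39h1/2. Its members are all entries of line 3S1G in the authors' table of read counts, which is 10 of 40 entries: 6 H3K9me2 and 4 Lamin B1 libraries, each with its input. Together with 6 inputs they make 16 of the 64 samples of the series. QKO cells (G9a;Suv39h1/2;Setdb1-QKO) were 3S1G cells cultured for 96 h in 800 nM 4-hydroxytamoxifen (4OHT), profiled for H3K9me2 and input in lots 1, 4 and 7 and for Lamin B1 in lots 1 and 4. TKO cells (G9a;Suv39h1/2-TKO) were the same line without 4OHT, from the same lots. Both groups therefore lack G9a, Suv39h1 and Suv39h2 and come from a line in which, per the labels, 4OHT deletes Setdb1. Every value comes from this single line. The labels do not say what a lot stands for, nor whether lots were separate cultures, so p-values reflect only the variation among these libraries, which may be technical.

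Methylation of lysine 9 on histone H3 (H3K9) marks transcriptionally silent chromatin. G9a, together with its partner GLP, places most dimethylation (H3K9me2) over euchromatin and over broad domains that lie against the nuclear lamina. Suv39h1 and Suv39h2 trimethylate H3K9 at pericentromeric repeats. Setdb1 is recruited by KAP1 and zinc finger proteins and trimethylates H3K9 at endogenous retroviruses and imprinted loci, placing lower methylation states on the way. Lamin B1 is a filament protein of the lamina and marks chromatin at the nuclear edge. On mouse build GRCm38.p6, RefSeq places Setdb1 (gene 84505) at chromosome 3, 95323525 to 95357202, and G9a (symbol Ehmt2, gene 110147) at chromosome 17, 34898463 to 34914073. Suv39h1 (gene 20937) lies at chromosome X, 8061171 to 8074760, and Suv39h2 (gene 64707) at chromosome 2, 3455815 to 3474986. The question is whether the H3K9me2 left without G9a and Suv39h1/2 depends on Setdb1.

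The assay was spike-in ChIP-seq. A fixed portion of fly chromatin, from the Drosophila cell line S2, was added to the mouse chromatin at 1 part to 9 by DNA before immunoprecipitation, so the fly reads are a yardstick of fixed amount. The normalised ratio used below takes mouse over fly reads of the ChIP and divides them by mouse over fly reads of the input from the same cells and lot. A ratio of 1 means that mouse and fly chromatin were recovered equally well. It sums the whole genome, so no gene or repeat class is resolved, neither stem cell markers nor the deletion of Setdb1 could be checked, and losing Setdb1 cannot be told apart from the 4OHT treatment. Mapped reads in 3S1G numbered 34.6 M to 84.4 M for H3K9me2, 66.6 M to 94.6 M for Lamin B1 and 57.6 M to 113 M for inputs. The 95% counting interval of any normalised ratio was at most ±0.160%, which covers counting error only.

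H3K9me2 was low in both states of the line, and no further loss was detected after 4OHT. QKO cells had normalised ratios of 0.0777, 0.210 and 0.0166 in lots 1, 4 and 7. TKO cells had ratios of 0.0845, 0.102 and 0.0179 in those lots. The groups overlapped fully in rank: QKO cells gave both the highest and the lowest of the 6 values. Lot 4 was the highest and lot 7 the lowest in both states. The mean was 0.102 ± 0.0991 in QKO cells and 0.0681 ± 0.0443 in TKO cells (SD, n = 3 each), and the geometric mean of QKO cells was 121% of that of TKO cells.

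**Figure D1:**
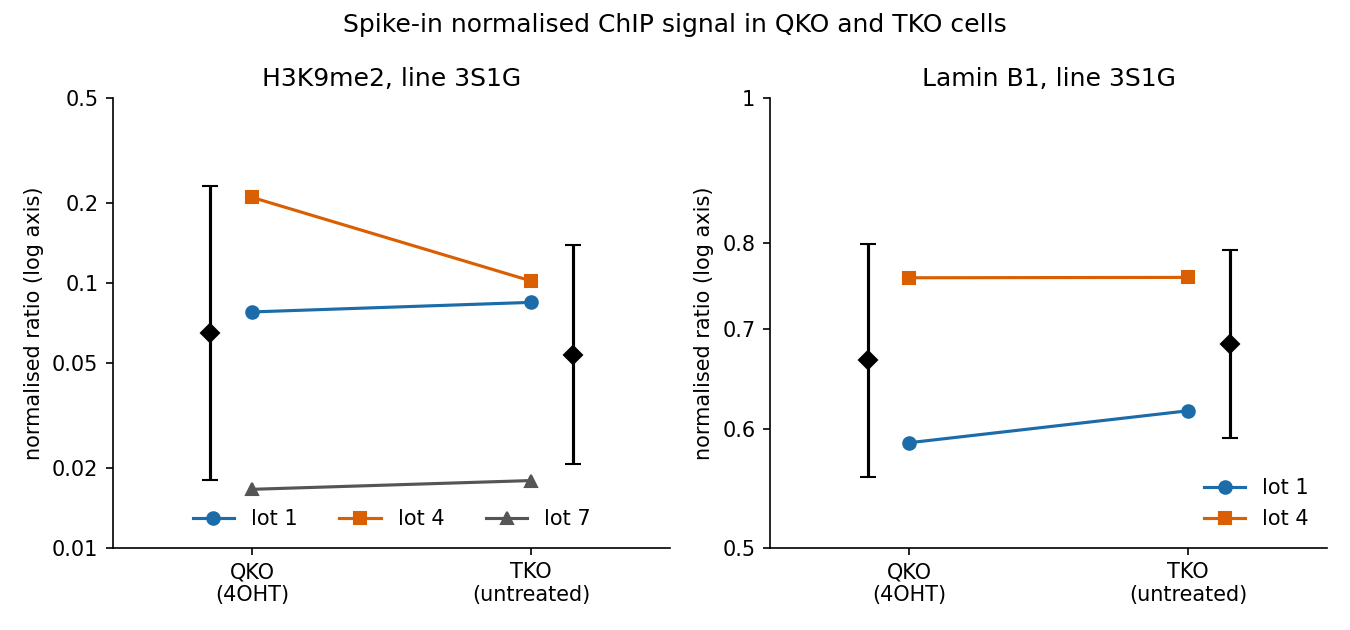
Normalised ratio (log axis) of H3K9me2 and of Lamin B1 in QKO and TKO cells of line 3S1G, with lines joining libraries of the same lot and black diamonds with bars for the geometric mean and 1 SD of the log2 values. The H3K9me2 lines for lots 1 and 7 are nearly flat and only lot 4 separates the states, with 0.210 in QKO and 0.102 in TKO cells, while the Lamin B1 values of the states almost coincide.

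Within lots, H3K9me2 of QKO cells stood at 92.0% of TKO cells in lot 1, at 207% in lot 4 and at 92.7% in lot 7. The log2 differences were −0.12, 1.05 and −0.11, so 2 of 3 lots were slightly lower in QKO cells and 1 was higher. The mean log2 difference was 0.27 (95% interval −1.41 to 1.96, from the SD pooled over the 8 genotypes of the series). Permuting 3 against 3 libraries in an exact two-sided test gave p = 1.00 (adjusted p = 1.00 over 3 tests), and this design cannot go below 0.1. The positive sign rests on lot 4: the log2 difference was −0.11 without that lot, −0.58 without the QKO library of lot 4 and −0.12 with medians. It was also −0.52 without the TKO library of lot 7, but 0.46 without lot 7 in both states. Leaving out a library of a single state compares unlike lots, so −0.58 and −0.52 also hold the gap between lots.

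The pooled-SD interval sets how large a fall in the normalised ratio the data leave possible. Background is part of that ratio and was not measured, so no limit on the loss of the mark itself follows. The lower limit of the interval is a QKO ratio of 37.6% of the TKO ratio. With lot as a term, which assumes the same lot shift in every genotype, the limits were 60.2% and 242%. TKO cells themselves had 5.81% of the H3K9me2 of control cells (line 33-6 without 4OHT) by geometric mean. The level was 10.0% without the TKO library of lot 7 and 7.80% without lot 7 in both groups. These percentages compare different lines, and a read trimmer is named in the processing notes of 3S1G but not of 33-6. The part of the trimmer was not tested. The line's own spread was wider than that of the other lines, with a log2 SD of 1.85 in QKO and 1.38 in TKO cells, against 0.51 to 0.69 in the 6 other genotypes. With the SD of these 2 genotypes alone, the interval of the difference was −3.42 to 3.96. From the 3 lot-matched differences it was −1.40 to 1.94.

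Fly reads filled much of the H3K9me2 libraries of this line. In QKO cells they made up 56.3% of mapped reads in lot 1, 33.3% in lot 4 and 79.1% in lot 7. In TKO cells the shares were 50.5% in lot 1, 49.3% in lot 4 and 79.4% in lot 7. The Wilson 95% interval of any of these shares was at most ±0.0192 percentage points. Inputs of the same cells held 5.90% to 9.51% fly reads in QKO and 6.48% to 9.01% in TKO cells. The mean fly share in ChIP was 56.2% ± 22.9 in QKO cells and 59.7% ± 17.1 in TKO cells (SD, n = 3 each). In the other lines it ran from 25.3% to 38.0% in the 6 libraries of the G9a-deficient line SG and from 5.42% to 15.1% in the 12 libraries of lines that keep G9a. The QKO library of lot 4, at 33.3%, lay within the range of SG, and the other 5 libraries of 3S1G lay above it.

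**Figure D2:**
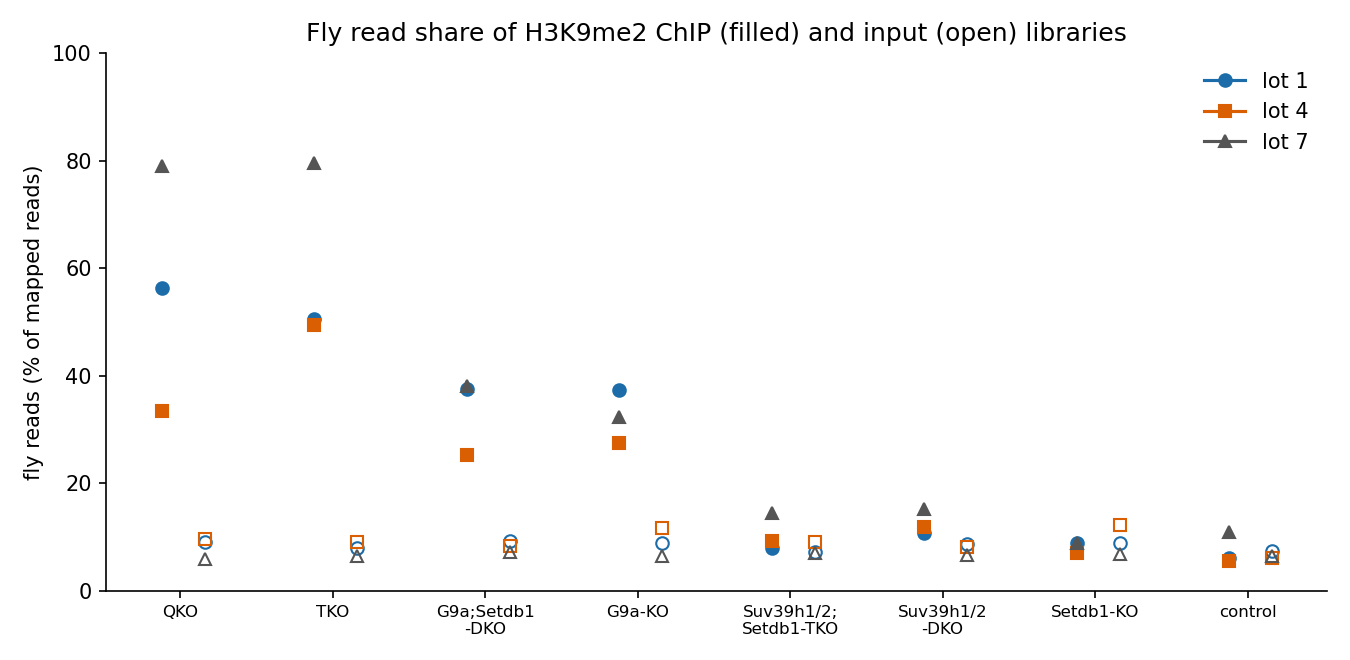
Fly reads as a percentage of mapped reads in each H3K9me2 ChIP library (filled) and its input (open), by genotype, with lots marked by colour and shape. QKO and TKO libraries reach 79.1% and 79.4% in lot 7, while no input exceeds 12.1%.

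A fly share near 100% would mean that almost no mouse chromatin was recovered, and lot 7 came closest to it. Lot 7 had the lowest H3K9me2 normalised ratio in every genotype of the series, so this order is not particular to 3S1G. In control cells the ratio was 0.558 in lot 7, against 1.24 in lot 1 and 1.14 in lot 4. In lot 7 of 3S1G, fly chromatin was recovered 60.2 times as well as mouse chromatin in QKO cells and 55.8 times as well in TKO cells. In lot 4 this factor was 4.75 in QKO and 9.82 in TKO cells, and in lot 1 it was 12.9 in QKO and 11.8 in TKO cells. The lot 7 ChIP libraries were also the shallowest of the line, with 34.6 M reads in QKO and 40.0 M in TKO cells, yet they still held 7.23 M mouse reads in QKO and 8.21 M in TKO cells. Counting error was therefore small even there, and other effects of depth or library yield were not tested. Mouse reads carried along without H3K9me2 were not measured here, so how much of each ratio is background was not tested. Lot 7 gives an upper bound for its own libraries only: background there cannot exceed ratios of 0.0166 in QKO and 0.0179 in TKO cells.

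Since the ratio combines ChIP and input libraries, the contribution of each to the log2 difference was separated by lot. In lot 4 the ChIP libraries gave 0.96 of the 1.05, and the inputs gave 0.09. In lot 1 the ChIP libraries differed by −0.34 and the inputs offset this by 0.22. In lot 7 the ChIP libraries differed by 0.03 and the inputs by −0.14, so the sign there came from the inputs. Without input correction, QKO cells were lower in 1 of 3 lots in place of 2, with a mean of 0.22.

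**Figure D3:**
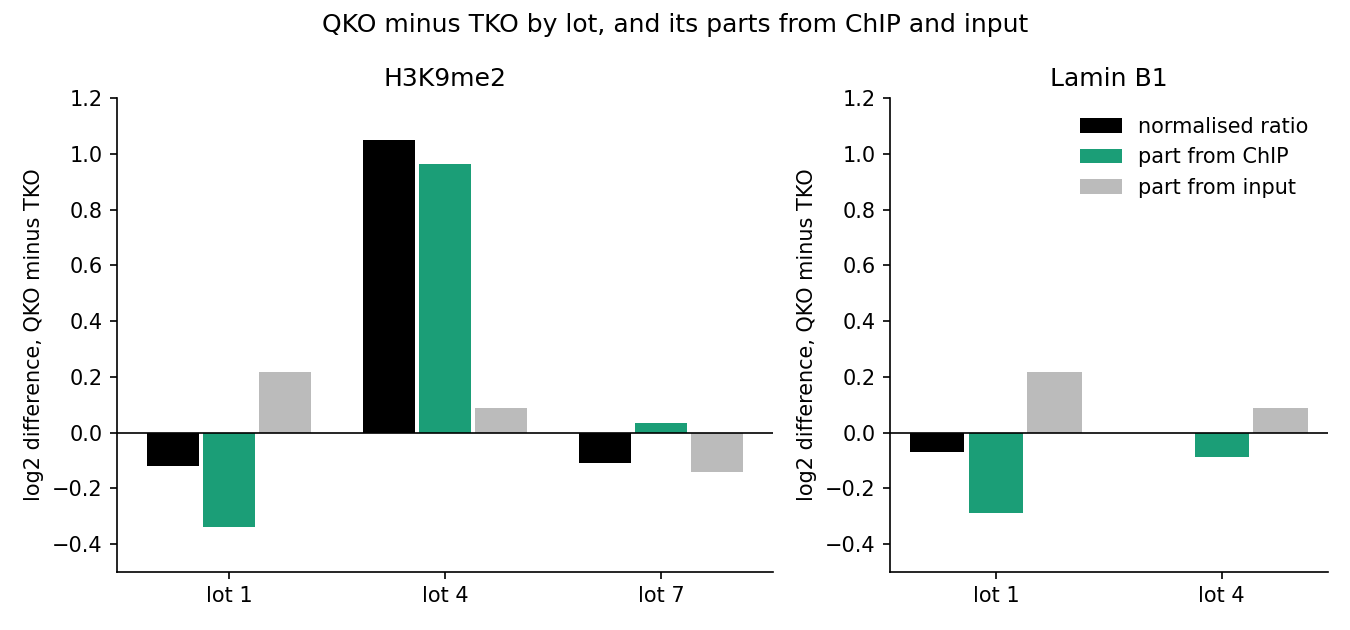
Log2 difference between QKO and TKO cells by lot for H3K9me2 and Lamin B1 (black), with its part from the ChIP libraries (green) and from the inputs (grey); the 2 parts add up to the black bar. The lot 4 difference of 1.05 in H3K9me2 comes almost wholly from the ChIP libraries, and the Lamin B1 bar of lot 4 is too small to see.

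The inputs themselves showed no detectable difference in how much fly chromatin had been added. Their mouse to fly ratio was 9.98, 9.51 and 15.9 in QKO cells of lots 1, 4 and 7, and 11.6, 10.1 and 14.4 in TKO cells of those lots. Lot 7 was highest in both states, and QKO cells were lower in 2 of 3 lots. The mean was 11.8 ± 3.59 in QKO and 12.1 ± 2.20 in TKO cells (SD, n = 3 each). The log2 difference was −0.05 (95% interval −0.61 to 0.51), and the exact two-sided permutation p was 0.800 (adjusted p = 1.00).

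Lamin B1 ChIP was compared between the same states. Its ratio sums the whole genome, so it cannot show whether chromatin moved to or from the lamina. The fly chromatin was recovered here through an antibody against the fly histone H2Av, so the ratio has no absolute meaning and only its differences between genotypes are described. It was 0.588 in lot 1 and 0.758 in lot 4 in QKO cells, and 0.617 in lot 1 and 0.758 in lot 4 in TKO cells. The gap between lots was larger than that between states. The means were 0.673 ± 0.120 in QKO and 0.688 ± 0.0997 in TKO cells (SD, n = 2 each), and QKO cells stood at 95.2% of TKO cells in lot 1 and at 99.9% in lot 4. The mean log2 difference was −0.04 (95% interval −0.74 to 0.67). In lot 1 the ChIP libraries differed by −0.29 and the inputs offset this by 0.22. In lot 4 the ChIP libraries differed by −0.09 and the inputs offset this by 0.09. Without input correction the mean over lots was −0.19. The lot 4 difference after input correction lay within counting error of its ratios. Permuting 2 against 2 libraries in an exact two-sided test gave p = 0.667 (adjusted p = 1.00), and it cannot go below 0.33. The sign turned without the QKO library of lot 1 (0.15) or the TKO library of lot 4 (0.11), but each of these compares unlike lots. The difference stayed negative without lot 1 (−0.0008) or lot 4 (−0.07) in both states. Fly reads made up 12.2% to 14.6% of the QKO and 11.5% to 12.2% of the TKO Lamin B1 libraries. In lot 4, where H3K9me2 of QKO cells was 207% of TKO cells, Lamin B1 measured against the same inputs was thus at 99.9%.

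Whether 4OHT acts differently in 3S1G than in lines that keep more enzymes was tested on the lot-matched differences. In line SG, which lacks G9a but keeps Suv39h1/2, the H3K9me2 log2 differences between G9a;Setdb1-DKO and G9a-KO cells were 0.08, −0.40 and −0.23 in lots 1, 4 and 7. The lot 4 difference of SG was made up of 0.16 from its ChIP libraries and −0.56 from its inputs, so its sign came from the inputs, unlike the 1.05 of 3S1G. In line SE, which lacks Suv39h1/2 but keeps G9a, the differences between Suv39h1/2;Setdb1-TKO and Suv39h1/2-DKO cells were 0.21, 0.57 and 0.18, and in line 33-6, which keeps G9a and Suv39h1/2, those between Setdb1-KO and control cells were −0.30, 0.71 and 0.42. In lot 4 of 33-6 the ChIP libraries gave −0.37 and the inputs 1.08. The 4OHT effect in 3S1G was 0.46 above that in SG on the log2 scale (95% interval −1.92 to 2.84). It differed by −0.05 from that in SE (−2.43 to 2.33) and by −0.0039 from that in 33-6 (−2.39 to 2.38). Exact two-sided permutation of the line labels gave p = 0.400 against SG and 1.00 against SE and 33-6, with adjusted p-values of 1.00 over 6 tests. These intervals use the SD of unmatched libraries and so do not gain from the lot matching. With lot as a term, which assumes the same lot shift in every genotype, they narrowed to −0.96 to 1.88 against SG. They were then −1.47 to 1.37 against SE and −1.42 to 1.42 against 33-6. Both sets of intervals are too wide to show that the lines respond alike.

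**Figure D4:**
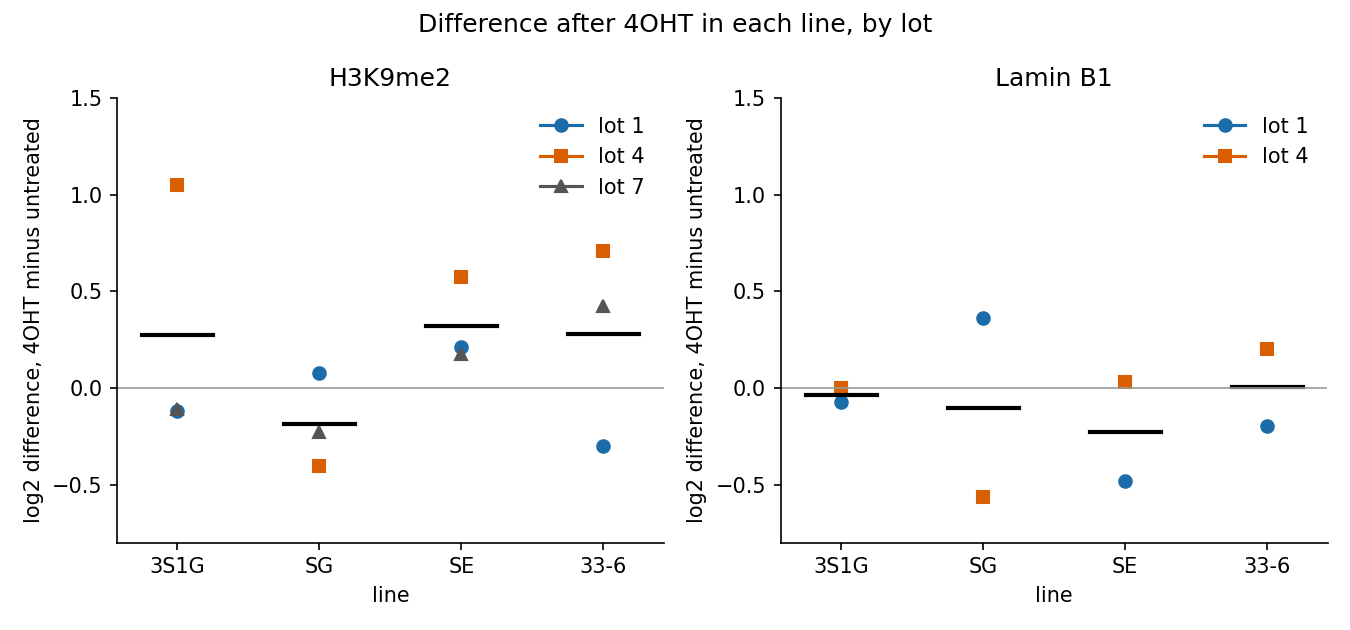
Log2 difference in normalised ratio after 4OHT (4OHT minus untreated) in each line and lot for H3K9me2 and Lamin B1, with black bars for the mean over lots. The 3S1G points lie at −0.12, 1.05 and −0.11 for H3K9me2 and at −0.07 and −0.0008 for Lamin B1, within a spread in the other lines of −0.40 to 0.71 and −0.56 to 0.36 apart from the lot 4 point of H3K9me2.

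For Lamin B1 the same differences after 4OHT were −0.07 and −0.0008 in lots 1 and 4 of 3S1G, against 0.36 and −0.56 in SG, −0.48 and 0.03 in SE, and −0.20 and 0.20 in 33-6. Without input correction the values were −0.29 and −0.09 in 3S1G, against 0.26 and −0.0040 in SG, −0.19 and −0.14 in SE, and −0.46 and −0.88 in 33-6, so which line differed least depends on that correction. The effect in 3S1G minus that in another line was 0.07 for SG, 0.19 for SE and −0.04 for 33-6. The 95% intervals were −0.93 to 1.06, −0.80 to 1.18 and −1.03 to 0.96. They also use the SD of unmatched libraries, and with lot as a term they were slightly wider. The exact permutation p was 1.00 each (adjusted p = 1.00 over 6 tests), and 2 against 2 pairs cannot go below 0.33.

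Taking both G9a-deficient lines together gives a test of Setdb1 loss without G9a that has enough assignments to pass a threshold of 0.05. Over SG and 3S1G the H3K9me2 log2 difference after 4OHT was 0.04 (95% interval −1.15 to 1.23). It averages line means of opposite sign, 0.27 in 3S1G and −0.18 in SG. Permuting treatment labels within lines, in an exact two-sided test, gave p = 0.965 (adjusted p = 0.965 over 2 tests), against a smallest possible value of 0.005. After 4OHT, 4 of the 6 lot-matched pairs were lower and 2 were higher, and 3 of 6 were lower without input correction. Including lot as a term narrowed the interval to −0.67 to 0.75, or 63.0% to 169% of the untreated level. That term assumes the same lot shift in every genotype. Lot spread differed, with the highest lot 12.7 times the lowest in QKO and 5.68 times in TKO cells. It was 2.13 times in G9a;Setdb1-DKO and 2.40 times in G9a-KO cells. For Lamin B1 the log2 difference was −0.07 (95% interval −0.57 to 0.43, exact permutation p = 0.556, adjusted p = 0.965). Of its 4 pairs, 1 (SG lot 1) was higher, and the 3S1G pair of lot 4 lay within counting error.

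The level of QKO cells was also set beside the nearest genotypes after 4OHT. H3K9me2 in QKO cells stood at 45.6% of G9a;Setdb1-DKO cells in lot 1, at 79.6% in lot 4 and at 13.4% in lot 7. The G9a;Setdb1-DKO ratios were 0.171, 0.264 and 0.124 in lots 1, 4 and 7, so QKO cells were lower in 3 of 3 lots although the ranges overlapped. The log2 difference was −1.45 (95% interval −3.14 to 0.23 from the pooled SD, −2.46 to −0.45 with lot as a term, and −4.72 to 1.82 from the 3 lot-matched differences alone). The lot term assumes the same lot shift in every genotype. Yet the highest lot was 12.7 times the lowest in QKO and 2.13 times in G9a;Setdb1-DKO cells. The exact two-sided permutation p was 0.300 (adjusted p = 0.444 over 4 tests). The log2 difference varied with single libraries of QKO cells, being −0.47 without lot 7 of that genotype and −2.30 without its lot 4. Leaving out lot 7 in both genotypes gave −0.73, and leaving out lot 4 in both gave −2.02. This comparison also sets different lines side by side, and a read trimmer is named in the processing notes of all 16 samples of 3S1G and of no sample of SG; its part in the difference was not tested.

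Against Suv39h1/2;Setdb1-TKO cells, which keep G9a, QKO cells had 8.59% of the H3K9me2 in lot 1, 21.7% in lot 4 and 3.72% in lot 7. The highest QKO library, at 0.210, lay below the lowest of that genotype, at 0.446. The log2 difference was −3.50 (95% interval −5.18 to −1.81 from the pooled SD, and −6.66 to −0.34 from the 3 lot-matched differences alone). The exact two-sided permutation p was 0.1, the smallest possible (adjusted p = 0.400). This comparison, too, sets different lines side by side. The log2 difference was −2.52 without lot 7 of QKO cells and −4.35 without their lot 4. Leaving out lot 7 in both genotypes gave −2.87, and leaving out lot 4 in both gave −4.14. Lamin B1 of QKO cells was 80.3% of G9a;Setdb1-DKO cells in lot 1 and 150% in lot 4, a mean log2 difference of 0.13 (95% interval −0.57 to 0.84, exact permutation p = 0.667, adjusted p = 0.667). It was 61.1% and 96.6% of Suv39h1/2;Setdb1-TKO cells in those lots, a mean log2 difference of −0.38 (95% interval −1.08 to 0.32, exact permutation p = 0.33, adjusted p = 0.444).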

How the data were processed

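Per the file headers, the authors deposited read counts per library on builds mm10 (mouse) and dm6 (fly), the mouse to fly ratio of each ChIP and each input, and a scaling factor, which is the ratio of both ratios. The submitters' processing notes name Bowtie2, SAMtools, deepTools 3.5.2 and, for all 16 samples of 3S1G, fastp 0.23.4. How reads were filtered and whether duplicates were removed is not stated there. All 40 counts of 3S1G were even, as if each mate of a read pair counted once, so counting error was taken over pairs. The deposited factor equalled the recomputed ratio in 10 of 10 entries (relative tolerance 1e-09), and no libraries were identical. The table writes the line name with a suffix, and entries were matched by line, treatment, antibody and lot.

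Differences were taken between log2 normalised ratios, 4OHT minus untreated or QKO minus the other genotype. Exact two-sided permutation tests enumerated all assignments of libraries, or of lot-matched differences to lines. P-values were adjusted by Benjamini-Hochberg within 4 families: QKO against TKO (3 tests), differences between lines (6), levels after 4OHT (4) and both G9a-deficient lines (2). The threshold was 0.05. Except where another source is named, the SD behind each 95% interval of a difference was pooled over 8 genotypes, without lot matching. The lot number was taken as pairing the samples because the same lot numbers recur in all genotypes. The labels do not say that lots were shared. With lot as a term the pooled log2 SD was 0.57 in place of 0.97 for H3K9me2 and 0.32 in place of 0.30 for Lamin B1. The main tests carry no block, except that differences between lines were taken on lot-matched pairs. Lot as a block was an alternative. The others were leaving out the input correction, averaging inputs over lots, using the deposited scaling factor, a linear scale, medians, and omission of lots or libraries. Intervals from the lot-matched differences of 3S1G were added after seeing the data. The permutation code was tested on simulated data. The comparison and tests were chosen with earlier results of these data known. The rule on named genes was to name none as measured, since the table holds none. Calculations used scipy 1.17.1, numpy 2.4.6 and pandas 2.3.3 under Python 3.11.15, and figures matplotlib 3.10.9.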

Additional observations from a re-analysis of the deposited data

How the results depend on the processing

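None of the 15 results had an adjusted p at or below 0.05, and none of the 262 alternative values did (smallest adjusted p 0.1), but only the test over both G9a-deficient lines for H3K9me2 could reach 0.05 in the main design. With lot as a replicate block the H3K9me2 log2 difference between QKO and TKO cells is 0.27 by construction, as every lot holds both states. Its exact sign-flip permutation p was 1.00, with 0.25 the smallest possible, so the block could give no call there. Of the 262 values 59 changed sign, 51 of them on leaving out a lot or a library. The cause was not tested. These counts do not measure stability, because the deposited factor, the block and the interval settings could only repeat the main value. For differences between lines, leaving out either library of a lot drops the same pair. Medians gave −0.12 for H3K9me2 in QKO minus TKO and −0.021 over both G9a-deficient lines. Without input correction the 4OHT effect in 3S1G minus that in 33-6 was 0.42 for H3K9me2 and 0.48 for Lamin B1, and the Lamin B1 effect in 3S1G was −0.32 relative to SG and −0.023 relative to SE. With inputs averaged over lots the Lamin B1 values were −0.16 relative to SG and 0.061 relative to 33-6.

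On leaving out 1 lot or library, QKO minus TKO ran from −0.58 to 1.25 for H3K9me2. It ran from −0.22 to 0.15 for Lamin B1 and from −0.29 to 0.084 for inputs. All of these limits came from leaving out a library of a single state, which compares unlike lots. With whole lots left out, H3K9me2 ran from −0.11 to 0.47. The H3K9me2 effect in 3S1G ran from −0.039 to 0.79 relative to SG, from −0.44 to 0.15 relative to SE and from −0.39 to 0.26 relative to 33-6. The Lamin B1 effect ran from −0.43 to 0.56, from −0.065 to 0.44 and from −0.24 to 0.16 relative to those lines. Lamin B1 of QKO minus G9a;Setdb1-DKO cells ran from −0.32 to 0.58. Over both G9a-deficient lines the 4OHT effect ran from −0.38 to 0.53 for H3K9me2 and from −0.28 to 0.14 for Lamin B1. The H3K9me2 limits there again came from QKO libraries left out alone. QKO cells stayed below G9a;Setdb1-DKO and Suv39h1/2;Setdb1-TKO cells in H3K9me2, and below Suv39h1/2;Setdb1-TKO cells in Lamin B1, under all alternatives run. Where a Lamin B1 genotype is left with 1 library, the value carries no test.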
